A study of Mus musculus with 6 samples.

Results

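The 10 imprinted genes described here are *H19*, *Cdkn1c*, *Zim1* and *Grb10*, which are known to be expressed from the maternal chromosome in most tissues, and *Peg3*, *Peg3os*, *Plagl1*, *Mest*, *Ndn* and *Sgce*, which are known to be expressed from the paternal one. They were taken by symbol from the 19831 genes of the expression table, and all 10 were found. Together they are imprinted genes of 8 loci, none of them the *Dlk1-Dio3* locus. They were chosen with the wild-type (WT) and Npffr1-KO values of these same samples in view. Their difference between the genotypes is therefore given as a description, without a test.

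Imprinted genes are transcribed mainly from the copy inherited from 1 parent. CpG methylation laid down in the egg or the sperm is kept at a control region nearby, on only 1 copy, which may be the silent one. Neighbouring genes often share such a control region, so an imprinted locus can hold maternally and paternally expressed genes side by side. Many of them regulate growth before and after birth. Paternally expressed genes such as *Igf2*, *Peg3* and *Mest* are known mostly to promote growth, and maternally expressed genes such as *H19*, *Cdkn1c* and *Grb10* to restrain it. Several are abundant in fetal and neonatal mesenchymal tissue and decline with age. In adipose tissue, *Mest* and *Peg3* have been tied to fat mass, and *Cdkn1c* and *Plagl1* to cell cycle exit.

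The samples were inguinal adipose tissue (iAT), the subcutaneous fat depot of the groin, collected from mice at postnatal day 6 and kept under specific pathogen-free conditions. There were 3 WT samples and 3 KO samples, the latter lacking neuropeptide FF receptor-1 (*Npffr1*), a G protein-coupled receptor. Neither the strain, the sex nor the construction of the *Npffr1* allele is given in the labels, so whether the receptor is missing in the whole animal is not stated there. Nor do the labels say whether the samples came from separate animals. RNA was extracted from whole tissue and sequenced, and the table gives 1 normalized read value per genotype. These values sum to 23137343 reads over all genes in WT and 23640005 in KO.

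The 2 genotype values of a gene are not plain means. They are drawn together where reads are few or where the libraries disagree, so a ratio between them can understate a difference. Reads of the single libraries were recovered for 7057 of the 7063 genes whose mean was at most 70 normalized reads. For 8 more abundant imprinted genes the reads came from a restricted search and may not be the true ones. The libraries could be assigned to a genotype but not to a sample number, and are called WT or KO library a, b and c. Of *Npffr1* itself, WT libraries a, b and c held 1, 0 and 5 reads and the KO libraries none, and a count of 0 allows up to 3. The receptor was thus near the detection limit in WT iAT, so these reads check the genotype only weakly.

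KO library a stood apart. It held 739 reads of the 10 skeletal muscle genes whose reads were recovered, against 70 to 92 in each of the other 5 libraries. *Ckm*, the muscle creatine kinase, had 215 reads there and 1 to 6 elsewhere, and the fast myosin *Myh1* had 289 and 0 to 6. The genotype values of *Myh1* were nonetheless 43.8 in WT and 53.0 in KO, which shows how far they can lie from the reads. The part of this muscle RNA in the values of the 9 imprinted genes whose libraries were not resolved was not tested. Among the 18 imprinted genes with recovered reads and a mean of at least 10, the log2 ratio of the library means lay past 0.5 in 6, with all libraries as without KO library a, and none moved across the fold. The sign changed in 4, *Kcnq1*, *Usp29*, *Peg12* and *Airn*, with log2 ratios from -0.19 to -0.03 with all libraries and from 0.01 to 0.22 without that library. For the count of 6 past 0.5, the share of all genes on the same measure was not worked out, so nothing is read from it. The reads of 8 of these 18 genes came from the restricted search, among them *Zim1* and *Slc22a2*, both past 0.5. That search kept each library near the genotype value, so an outlier like that of *Myh1* in KO library a could not be returned. For these 8 genes, staying on the same side of the fold is therefore no check against that library.

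In WT iAT the 10 genes spanned a wide range of levels. Levels between genes are compared per kilobase of the deposited gene length. *H19*, a long noncoding RNA, was the most abundant, with 39112 normalized reads per kilobase in WT, more than 99.9% of all listed genes. Only 10 genes had a higher undivided WT value. *Mest*, which encodes a hydrolase-like membrane protein, followed with 22622 normalized reads per kilobase. A middle group held *Cdkn1c* with 2726, *Plagl1* with 1568, *Ndn* with 1345, *Sgce* with 1244 and *Grb10* with 1193 normalized reads per kilobase. *Peg3os* and *Peg3* had 608 and 522. *Zim1* was far below, at 67.3 normalized reads per kilobase, more than 44.0% of all listed genes. With 1 value per genotype, neighbours in this order cannot be separated by replicate error. In KO the first and second places and the last were held by the same genes, while *Ndn* moved from place 5 to 3 and *Cdkn1c* from place 3 to 4.

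**Figure D1:**
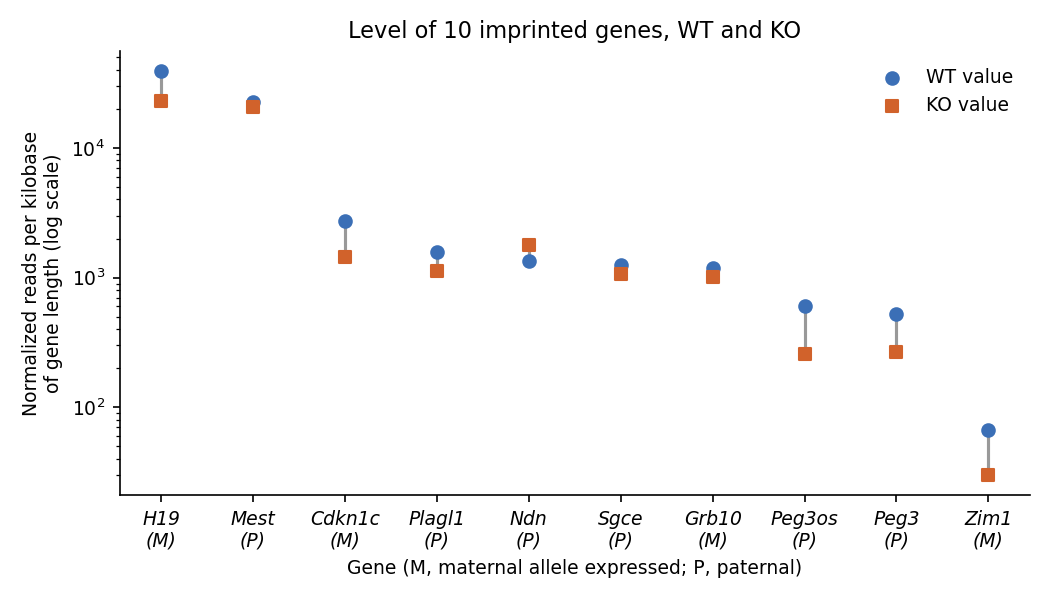
WT (circle) and KO (square) value of each gene, in normalized reads per kilobase of gene length on a log scale, ordered by the WT level; M and P below a gene name give the parental allele known to be expressed. *H19* at 39112 in WT and *Zim1* at 67.3 mark the ends of the range, and *Ndn* is the gene whose KO value lies above its WT value.

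The KO value lay below the WT value in 9 of the 10 genes, *Ndn* being the exception. Of these, 5 were lower by at least 0.5 on the log2 scale, which is 1.41-fold, namely *Peg3os*, *Zim1*, *Peg3*, *Cdkn1c* and *H19*, and 0 were higher by that much. Among all 15309 genes whose mean was at least 10 normalized reads, 4.78% were lower and 4.37% higher by the same fold. Without a fold, 7474 of them had the lower and 7835 the higher KO value. Since the 10 genes were chosen on this contrast, nothing is read from these differences. Among the 5283 genes whose mean was at least 1000, to which 8 of the 10 genes belong, 1.46% were lower and 2.59% higher past the fold. The gene nearest to the fold from inside was *H19* with a log2 ratio of -0.77, and from outside *Plagl1* with -0.47. The median log2 ratio was -0.62 over the 10 genes and 0.0082 over all genes. In whole tissue, fewer cells of a type and less RNA per cell cannot be told apart.

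**Figure D2:**
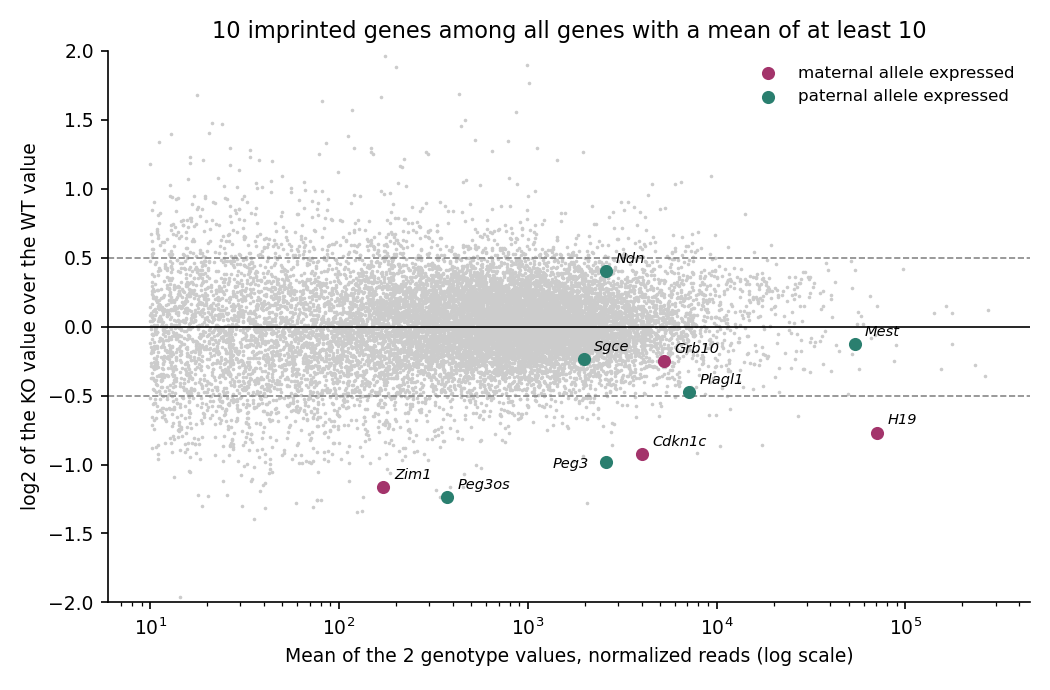
log2 of the KO over the WT value (vertical axis) against the mean of both values in normalized reads (horizontal axis, log scale) for all genes with a mean of at least 10 (grey; 7 lie beyond the axis), with the 10 imprinted genes coloured by the parental allele expressed; dashed lines mark 0.5 in either direction. *Peg3os*, *Zim1*, *Peg3*, *Cdkn1c* and *H19* lie below the lower line, the last of them far to the right at a mean of 70951.

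*H19* and *Igf2* share an enhancer set and a control region on distal chromosome 7, where *H19* is transcribed from the maternal and *Igf2*, a fetal growth factor, from the paternal copy. *H19* (GENCODE M21, GRCm38, chr7:142575529-142578143, minus strand) had 89449 normalized reads in WT and 52453 in KO, a 1.71-fold lower KO value. *Igf2*, which lies 72622 bases further along the chromosome, had 57714 and 41073, with a log2 ratio of -0.49. Both genes of this oppositely imprinted pair were thus lower in KO, and per kilobase *H19* exceeded *Igf2* 1.46-fold in WT and 1.21-fold in KO. *Ins2*, an insulin gene of the same locus, was near the detection limit, with 4 reads over the WT libraries and 8 over the KO libraries.

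*H19* RNA is also the precursor of the microRNA miR-675, known as a growth inhibitor in the placenta. The hairpin lies within the *H19* gene, and the sequences of its mature arms are shown because they are the best known sequence product of this transcript. They come from RefSeq (GRCm38.p6, chr7:142577112-142577133 for the 5p arm and chr7:142577078-142577099 for the 3p arm, minus strand), with the seed (bases 2 to 8) in capitals. The 2 arms do not share a seed.
mmu-miR-675-5p: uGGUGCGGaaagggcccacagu
mmu-miR-675-3p: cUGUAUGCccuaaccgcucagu
The mature arms were not measured here, and the *H19* value holds reads of the long transcript.

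*Cdkn1c* encodes p57Kip2, a cyclin-dependent kinase inhibitor that holds cells in G1. It lies in the *Kcnq1ot1* domain (chr7:143458339-143461050, minus strand) and had 5234 normalized reads in WT and 2761 in KO, a 1.90-fold lower value. In GENCODE M21, 27.2% of its 31-base sequences also occur in the overlapping gene *Gm44732*, so its value may be shared. The other genes of the domain lay close to 0 on the log2 scale. The noncoding RNA *Kcnq1ot1*, which silences the domain on the paternal copy, had a log2 ratio of -0.10. Among the maternally expressed genes the log2 ratios were -0.18 for the potassium channel gene *Kcnq1*, -0.06 for the tetraspanin gene *Cd81*, 0.04 for *Tssc4*, 0.13 for the nucleosome assembly gene *Nap1l4*, 0.05 for the lipid-binding protein gene *Osbpl5* and 0.21 for the transporter gene *Slc22a18*. *Kcnq1* had 157, 142 and 134 reads in the WT libraries and 89, 124 and 146 in the KO libraries, which overlap. *Slc22a18*, with 34, 41 and 56 reads in WT and 54, 43 and 52 in KO, overlapped as well. *Ascl2*, a transcription factor gene of the placenta, had 23 reads over WT and 25 over KO, and *Phlda2*, a brake on placental growth, had 4 in all. *Cdkn1c* was the 1 gene of the 8 with a mean of at least 10 in this domain that lay past the fold in either direction.

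The 2 other members of the Cip/Kip family, to which p57Kip2 belongs, were lower by less. The log2 ratio was -0.37 for *Cdkn1a*, which encodes p21, and -0.18 for *Cdkn1b*, which encodes p27. Of the Ink4 family, which inhibits Cdk4 and Cdk6, *Cdkn2c* had 2366 normalized reads in WT and 3666 in KO, a log2 ratio of 0.63, and *Cdkn2a* had 0.62 at a mean of 17.1 normalized reads. Per kilobase, the WT level of *Cdkn1c* was 3.67 times that of *Cdkn1b*, and the KO level 2.19 times. Over the 7 inhibitors the median log2 ratio was 0.25, with 1 lower and 2 higher past the fold. Among the 11 cyclin-dependent kinases, G1 cyclins and retinoblastoma proteins none lay past the fold in either direction. Their extremes were *Cdk4* with 0.32, *Ccne1* with 0.19 and the retinoblastoma-like gene *Rbl2* with -0.17, and the most abundant cyclins *Ccnd2* and *Ccnd3* had 0.02 and 0.09.

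*Grb10* encodes an adaptor that binds the insulin and IGF1 receptors and dampens their signal. It lies on chromosome 11 (chr11:11930508-12038683, minus strand) and had 5722 normalized reads in WT and 4804 in KO, a log2 ratio of -0.25. After centring on genes of like length this ratio was -0.15. Its neighbour *Ddc*, which encodes an amine-forming decarboxylase, had 27, 47 and 59 reads in the WT libraries and 44, 19 and 44 in the KO libraries, which overlap. The related adaptor gene *Grb14*, not imprinted, had 367 normalized reads in WT and 748 in KO, with a log2 ratio of 1.03 that was opposite in sign to that of *Grb10*. Per kilobase, *Grb10* exceeded *Grb14* 6.43-fold in WT and 2.65-fold in KO. Of the 10 genes of the Grb7 family and of insulin and IGF signalling, *Grb14* was the 1 gene higher past the fold and *Irs1*, an insulin receptor substrate gene with a log2 ratio of -0.52, the 1 gene lower. The ligand gene *Igf1* had a log2 ratio of -0.05.

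The *Peg3* locus on proximal chromosome 7 held the lowest ratios. *Peg3* (chr7:6703892-6730431, minus strand), which encodes a zinc finger protein also known as Pw1, had 3460 normalized reads in WT and 1754 in KO, a 1.97-fold lower value. *Peg3os*, a noncoding RNA known to be transcribed antisense to *Peg3*, had 526 and 223, 2.36-fold lower. All 865 bases of *Peg3os* in RefSeq lie within exons of *Peg3* in GENCODE M21. Since the strand setting of the libraries is not given in the sources used here, reads of the 2 genes may not be separable, and *Peg3os* is not independent of *Peg3*. *Zim1* (chr7:6671269-6696450, minus strand), a zinc finger gene 7441 bases from *Peg3* and expressed from the opposite, maternal copy, had 238 and 106 normalized reads, 2.24-fold lower. The share of 31-base sequences that other genes hold was 0.84% for *Zim1* and 0.030% for *Peg3*.

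*Zim1* was the 1 gene of the 10 for which the restricted search gave a single combination of reads. Combinations outside the search limits were not searched, so this match may not be the true one. For *Peg3os* the same search gave 12 matches. WT libraries a, b and c held 238, 334 and 175 reads, and KO libraries a, b and c held 69, 133 and 91. Normalized for library size, the means were 244 ± 77.6 in WT and 100 ± 33.9 in KO (SD, n = 3). All WT libraries lay above all KO libraries, and the log2 ratio of the means was -1.28 with all libraries and -1.06 without KO library a. The reads were taken from combinations whose change was close to that of the genotype values and whose library values lay within a factor of 2 of them. The size of this change, the spread between the libraries and the lack of overlap are therefore not independent of the genotype values. An exact permutation test of 3 against 3 cannot go below p = 0.10.

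*Usp29*, a deubiquitinase gene, starts 147 bases from *Peg3* on the other strand and is known to share its bidirectional promoter and its paternal expression. It did not follow *Peg3* in these values. With 21.9 normalized reads in WT and 21.5 in KO, its log2 ratio was -0.03. WT libraries a, b and c held 15, 22 and 30 reads and KO libraries 14, 17 and 31, so the groups overlapped almost entirely, with means of 21.9 ± 7.65 and 21.5 ± 10.8 (SD, n = 3). *Usp29* was expressed at a low level, as *Peg3* exceeded it 178-fold per kilobase in WT and 92.0-fold in KO. With 67 reads over the WT and 62 over the KO libraries, the precision of this comparison was limited. *Zim2* and *Zim3*, other genes of the locus, were looked up by symbol and were not among the genes listed.

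The promoter windows of *Peg3* and *Zim1* are shown because these neighbours are expressed from opposite parental copies yet were both lower in KO. Each holds 250 bases before and 50 after the start (RefSeq, GRCm38.p6, both on the minus strand, 5′ to 3′), and every CpG, the site of imprinting methylation, is in capitals. The *Peg3* window is chr7:6730370-6730669, with 13 CpGs, and 263 of its bases are also in the window of *Usp29*. The *Zim1* window is chr7:6696383-6696682, with 20 CpGs.
Peg3: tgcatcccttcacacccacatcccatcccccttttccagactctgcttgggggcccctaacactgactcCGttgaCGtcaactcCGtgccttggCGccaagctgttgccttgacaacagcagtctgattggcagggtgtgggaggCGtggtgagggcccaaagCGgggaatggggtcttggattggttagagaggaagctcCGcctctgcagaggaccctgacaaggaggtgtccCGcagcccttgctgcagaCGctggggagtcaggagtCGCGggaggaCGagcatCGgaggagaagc
Zim1: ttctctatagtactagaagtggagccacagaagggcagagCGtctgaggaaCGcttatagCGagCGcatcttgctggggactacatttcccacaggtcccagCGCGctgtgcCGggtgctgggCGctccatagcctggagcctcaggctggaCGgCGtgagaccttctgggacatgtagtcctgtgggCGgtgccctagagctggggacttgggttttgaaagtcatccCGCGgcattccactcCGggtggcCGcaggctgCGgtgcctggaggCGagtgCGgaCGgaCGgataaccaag
The median window of all 32817 holds 7 CpGs. Of motifs searched on both strands, the YY1 core GCCATNTT was in neither window and in 6.04% of all windows, and the ZFP57 core TGCCGC, the sequence bound by a keeper of imprints, was once in the *Zim1* window, not in the *Peg3* window and in 11.6% of all windows. TATAAA was in neither and in 13.6% of all. These matches are a description of the letters only, and methylation was not measured.

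**Figure D3:**
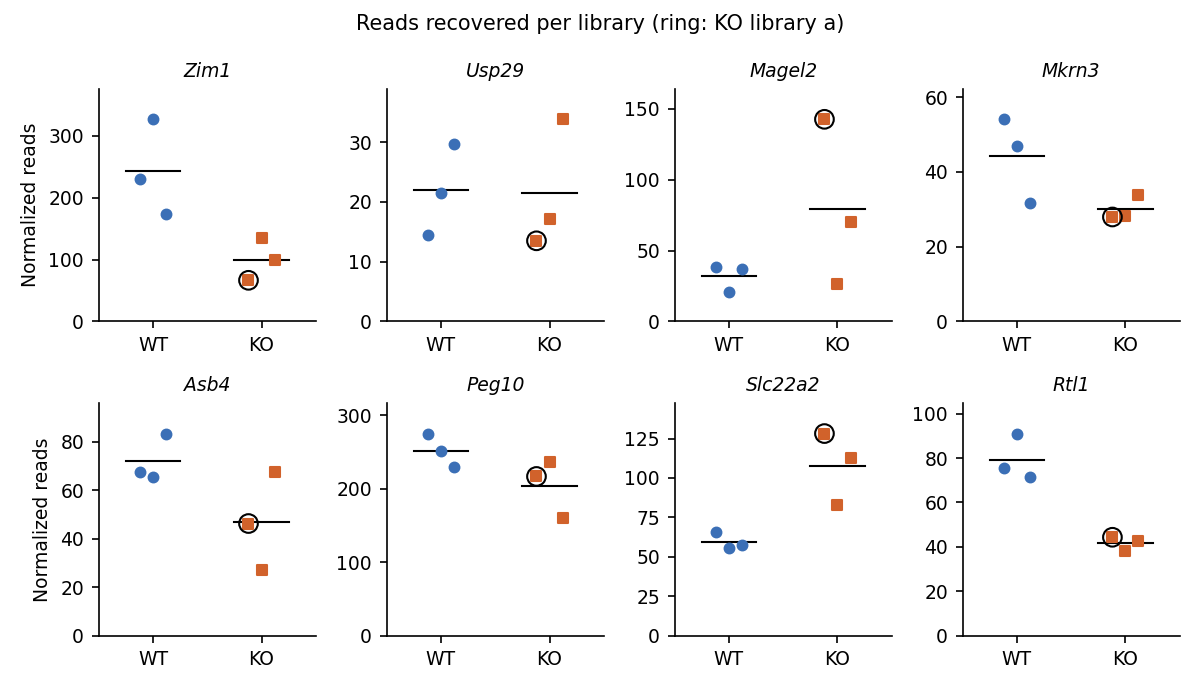
Reads of 8 imprinted genes in each library, normalized for library size (vertical axis, 1 scale per gene), with the WT libraries as circles and the KO libraries as squares; black lines are group means (n = 3) and the ring marks KO library a. The groups do not overlap for *Zim1*, *Slc22a2* and *Rtl1*, they overlap for *Usp29*, and the highest point of *Magel2* is KO library a.

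*Plagl1* encodes Zac1, a zinc finger transcription factor that can arrest the cell cycle and acts on other imprinted genes. It lies on chromosome 10 (chr10:13060504-13131694, plus strand) and had 8275 normalized reads in WT and 5956 in KO, a 1.39-fold lower value. Its promoter window is shown because its ratio lies closest to the fold from outside (RefSeq, GRCm38.p6, chr10:13090582-13090881, plus strand, CpGs in capitals).
Plagl1: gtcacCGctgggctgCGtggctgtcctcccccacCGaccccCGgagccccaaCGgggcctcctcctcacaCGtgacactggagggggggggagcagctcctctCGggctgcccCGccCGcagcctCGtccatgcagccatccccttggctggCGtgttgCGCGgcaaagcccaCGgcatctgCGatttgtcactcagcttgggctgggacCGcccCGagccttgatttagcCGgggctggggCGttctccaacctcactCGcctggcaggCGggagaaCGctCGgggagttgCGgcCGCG
It has 26 CpGs, more than 83.1% of all windows, and 1 match to TGCCGC. *Phactr2*, a neighbour that regulates phosphatase and actin, had a log2 ratio of -0.23. *Hymai*, a noncoding RNA of the same locus, had 0, 0 and 1 reads in WT and 3, 4 and 1 in KO, too few to compare. The related zinc finger genes *Plag1* and *Plagl2*, which lie elsewhere in the genome, had log2 ratios of -0.59 at a mean of 35.4 normalized reads and of 0.08.

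*Mest* on chromosome 6 (chr6:30723547-30748465, plus strand) had 56124 normalized reads in WT and 51309 in KO, a log2 ratio of -0.13. A ratio lower than this was found in 29.3% of all genes with a mean of at least 10. It was thus nearly level between the genotypes in spite of its high expression, and per kilobase *H19* exceeded it 1.73-fold in WT and 1.11-fold in KO. The convergent gene *Copg2*, which encodes a coatomer subunit, overlaps *Mest* by 912 bases, and 22% of the 31-base sequences of *Mest* occur in *Copg2* as well. Its log2 ratio was 0.00 at 1684 normalized reads in WT and 1681 in KO. *Klf14*, a transcription factor gene tied to adipose gene expression, had a log2 ratio of -0.12.

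*Ndn* encodes necdin, a MAGE family protein that restrains proliferation and adipogenesis. On chromosome 7 (chr7:62346569-62350262, plus strand), it had 2223 normalized reads in WT and 2941 in KO, 1.32-fold higher, with a log2 ratio of 0.40 that exceeded that of 92.5% of all genes with a mean of at least 10. Its promoter window is printed because it is the 1 gene of the 10 with the higher KO value (RefSeq, GRCm38.p6, chr7:62348027-62348326, plus strand, CpGs in capitals).
Ndn: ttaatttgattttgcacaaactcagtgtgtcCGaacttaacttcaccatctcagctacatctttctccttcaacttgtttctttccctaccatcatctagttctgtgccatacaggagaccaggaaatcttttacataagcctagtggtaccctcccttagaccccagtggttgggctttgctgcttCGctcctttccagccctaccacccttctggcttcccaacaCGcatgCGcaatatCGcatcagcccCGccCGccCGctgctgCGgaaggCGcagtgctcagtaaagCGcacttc
This window has 11 CpGs and no match to TGCCGC, GCCATNTT or TATAAA.

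*Magel2*, a paralogue of *Ndn* 26747 bases away, had a log2 ratio of 1.0 between the genotype values, and among genes of the 8 loci with a mean of at least 10 it was the 1 gene higher past the fold. Its size rested on KO library a. WT libraries held 40, 21 and 37 reads and KO libraries a, b and c held 148, 26 and 64, so the groups overlapped. The normalized means were 32.0 ± 9.93 in WT and 79.6 ± 58.8 in KO (SD, n = 3), and the log2 ratio of these means was 1.32. Without KO library a the KO mean was 48.0 and the log2 ratio 0.59, still past the fold. The same library held most reads of the muscle genes, and the part of muscle RNA in the *Magel2* reads was not tested.

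Other genes of the *Snrpn* domain were mixed. *Ube3a*, a ubiquitin ligase gene, had a log2 ratio of 0.39, *Atp10a*, a lipid flippase gene, 0.28, and the splicing protein gene *Snrpn* 0.16. *Snurf*, whose transcript overlaps that of *Snrpn*, had 19, 20 and 26 reads in WT and 24, 31 and 23 in KO. *Mkrn3*, a ring finger gene that delays puberty, had 56, 48 and 32 reads in WT and 29, 28 and 31 in KO, and the normalized groups overlapped. *Peg12* had 89, 128 and 82 in WT and 74, 102 and 92 in KO. Of the 8 genes of this domain, *Ndn* included, 6 had a higher and 2 a lower KO value, with a median log2 ratio of 0.27. Among the further MAGE genes *Maged1* and *Maged2* lay at -0.07 and 0.02, and *Mageh1* at -0.28.

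*Sgce* encodes epsilon-sarcoglycan, a membrane protein of the dystrophin complex outside striated muscle. It lies on chromosome 6 (chr6:4674350-4747207, minus strand) and had 2136 normalized reads in WT and 1815 in KO, a log2 ratio of -0.23. *Peg10*, derived from a retrotransposon, starts 99 bases from *Sgce* on the other strand and is also expressed from the paternal copy. Its log2 ratio was -0.29, near that of *Sgce*, with 285, 257 and 231 reads in the WT libraries and 225, 234 and 147 in the KO libraries. The normalized groups overlapped, with means of 252 ± 23 and 204 ± 39.4 (SD, n = 3).

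Among the maternally expressed genes of the *Sgce-Peg10* locus, *Asb4*, which encodes an adaptor for protein degradation, was lower past the fold with a log2 ratio of -0.54. It held 70, 67 and 84 reads in WT and 48, 27 and 62 in KO, and the normalized groups overlapped by 1 library. The log2 ratios were -0.31 for the neurabin gene *Ppp1r9a*, -0.13 for the protease inhibitor gene *Tfpi2*, -0.07 for *Casd1*, and 0.05 and 0.27 for the paraoxonase genes *Pon2* and *Pon3*. *Tfpi2* held 113, 150 and 148 reads in WT and 110, 127 and 120 in KO, which overlap, and *Calcr*, the calcitonin receptor gene, had 1 read in all. Among the 6 sarcoglycan complex genes with a mean of at least 10, none was past the fold, with *Sgcb* at -0.18 and *Dag1*, the dystroglycan gene, at -0.11.

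Compared by parental allele, all 4 maternally expressed genes had the lower KO value, with a median log2 ratio of -0.85 and a range from -1.16 to -0.25. Of the 6 paternally expressed genes 5 had the lower KO value, with a median of -0.35 and a range from -1.24 to 0.40. Past the fold lay 3 maternal and 2 paternal genes, and the ranges overlapped. Those 2 are *Peg3* and *Peg3os*, whose reads may not be separable, so the paternal count and median may not rest on 6 independent genes. Summed, the maternal genes had 100643 normalized reads in WT and 60124 in KO, most of them from *H19*, and the paternal genes 72744 and 63999, most of them from *Mest*. Among the other imprinted genes of the same loci with a mean of at least 10, the median was 0.02 for the 16 maternally and -0.10 for the 11 paternally expressed genes. There the maternal median was the higher of the 2. The parental alleles are those known from outside these data. Allelic expression in iAT was not measured, so some of these genes may be expressed from both copies there.

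Compared by locus, the values differed within several loci. In the *Peg3* locus the log2 ratio ran from -1.24 for *Peg3os* to -0.03 for *Usp29*, in the *Kcnq1ot1* domain from -0.92 to 0.21, and in the *Snrpn* domain from -0.48 to 1.0. In the *H19-Igf2*, *Grb10*, *Plagl1* and *Mest* loci all genes with a mean of at least 10 had the lower KO value. Of the 27 other imprinted genes of the 8 loci with a mean of at least 10, 16 had a lower and 11 a higher KO value, with 1 past the fold in each direction and a median of -0.06. Without the *Peg3* locus, which supplies 3 of the 10 genes, the median over the remaining 7 was -0.25.

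**Figure D4:**
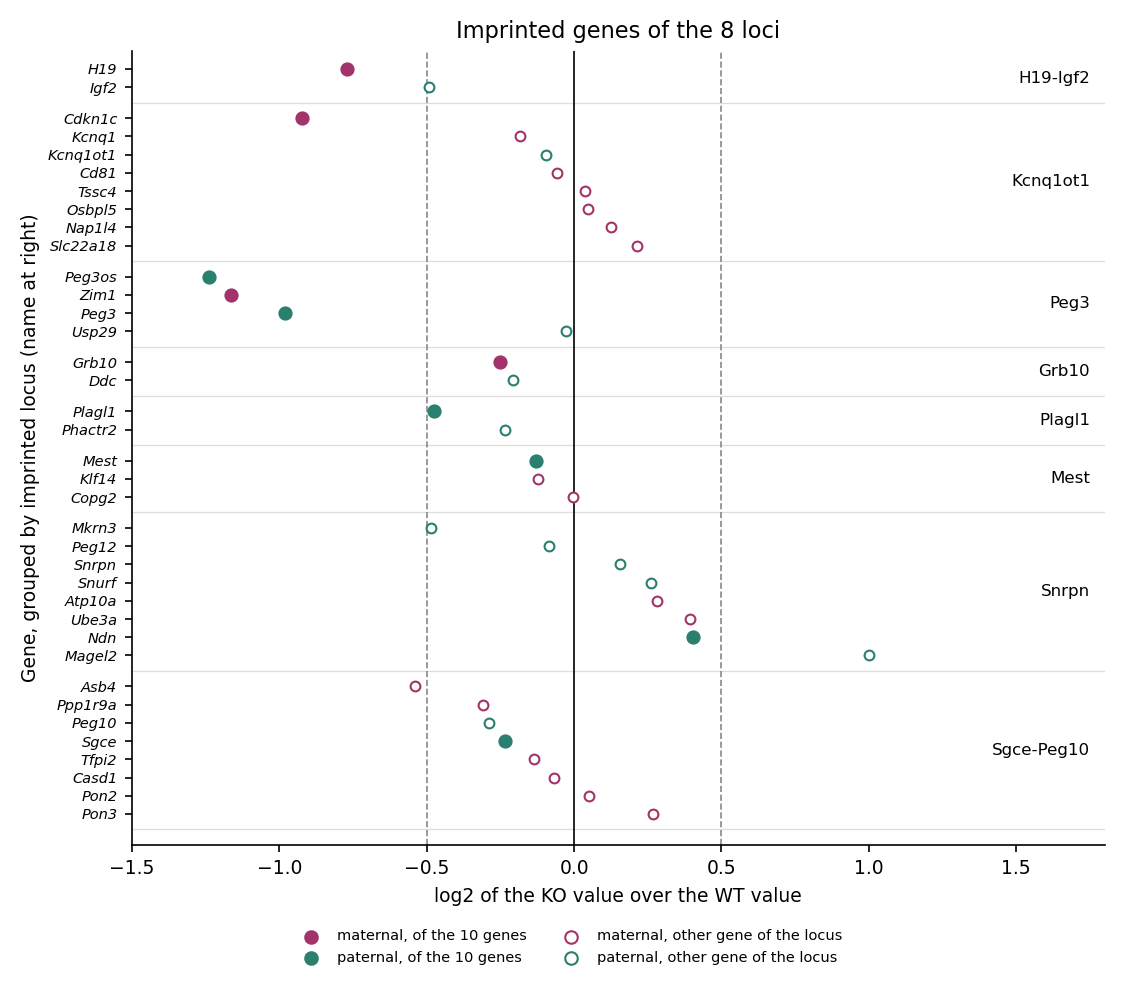
log2 of the KO over the WT value (horizontal axis) for the imprinted genes of the 8 loci whose mean was at least 10 normalized reads; filled points are the 10 genes described, open points their neighbours, colour gives the parental allele expressed, and dashed lines mark 0.5 in either direction. Within the *Peg3*, *Kcnq1ot1* and *Snrpn* groups the points spread widely, with *Usp29*, *Slc22a18* and *Magel2* as the highest of each.

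Reads by library were recovered for 25 imprinted genes in all, 18 of them with a mean of at least 10. Of these 18, the normalized reads of all KO libraries lay below all WT libraries in 2, *Zim1* and *Rtl1*, and above them in 1, *Slc22a2*, while 15 overlapped. Among 2535 genes with recovered reads and a mean from 10 to 70, all KO libraries lay below in 10.1% and above in 6.47%. Only 10 of the 18 imprinted genes came from the same full search as this background, and of these all KO libraries lay below in 1, *Rtl1*, and above in 0. The other 8, *Zim1* and *Slc22a2* among them, were more abundant and came from the restricted search, so they have no like background. *Rtl1*, a retrotransposon-derived gene of the *Dlk1-Dio3* locus, had 78, 93 and 72 reads in WT and 46, 38 and 39 in KO. *Slc22a2*, an organic cation transporter gene beside *Igf2r* that is known to be imprinted in the placenta, had 68, 57 and 58 in WT and 133, 82 and 103 in KO. Its normalized mean was 59.7 in WT, 108 in KO and 97.6 in KO without library a. For genes with a mean of over 40 and up to 70 the median coefficient of variation between libraries was 19.9% in WT and 22.8% in KO. The spread of the more abundant genes was not measured.

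Of the 17 imprinted genes of other loci with a mean of at least 10, 9 had the lower and 8 the higher KO value, with a median log2 ratio of -0.11 and 1 past the fold, *Slc22a2*. The next in size were *Gatm*, which makes the creatine precursor, with -0.48, and the amino acid transporter gene *Slc38a4* with -0.39. The most abundant were *Gnas*, the stimulatory G protein gene, and *Nnat*, a small membrane protein gene, with 0.02 and 0.10. The *Dlk1-Dio3* genes, by contrast, had all 5 values lower, among them *Dlk1*, the preadipocyte factor, with -0.87 and *Meg3* with -0.86, a pair expressed from opposite parental copies like *H19* and *Igf2*. The remaining low genes held few reads or overlapped. *Nap1l5* had 46, 49 and 37 reads in WT and 66, 40 and 44 in KO, *Sfmbt2* 89, 58 and 75 against 65, 57 and 57, *Airn* 224, 212 and 191 against 158, 175 and 217, and *Mcts2* 188, 227 and 225 against 244, 189 and 247. *Rasgrf1* had 11 reads over WT and 14 over KO, and *Dio3* had 0 and 8.

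Genes that keep imprints after fertilization differed in both directions. Of 12 with a mean of at least 10, none lay past the fold and the median was -0.02. *Zfp57* and *Zfp445*, zinc finger proteins that recognise methylated imprints, had log2 ratios of -0.40 and -0.34. *Uhrf1*, which guides maintenance methylation, had 0.37, and the corepressor gene *Trim28* and the methyltransferase gene *Dnmt3a* had 0.18 and -0.05.

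Markers of the cell types in the tissue also differed between the genotype values in part. The counts past the fold given here stand beside the 4.78% of all genes lower and the 4.37% higher by that fold. The summed value of 12 adipocyte progenitor markers was 597440 normalized reads in WT and 481935 in KO, with 0 of 12 past the fold, 9 lower and 3 higher. Most of this sum came from the collagen genes *Col1a1* and *Col3a1*, with log2 ratios of -0.36 and -0.28, and *Pdgfra* had -0.37, while *Icam1*, *Cd55* and *Dpp4* had 0.15, 0.13 and 0.01. The 8 endothelial markers summed to 70886 and 55618, with 7 lower and 1 past the fold, *Vwf* with -0.85, and *Cldn5*, *Tek*, *Cdh5* and *Pecam1* between -0.44 and -0.28. All 11 lymphocyte markers measured were higher, 7 of them past the fold, with *Cd3g* at 0.77, *Lck* at 0.74, *Cd3d* at 0.72 and *Cd79a* at 0.33. The 12 adipocyte markers summed to 546018 and 568067, with 7 higher and 5 lower. *Lep* was the 1 marker past the fold at 1.05, *Pparg*, *Cidec*, *Fabp4* and *Lpl* lay between 0.10 and 0.40, and *Adipoq*, *Cfd*, *Plin4*, *Retn* and *Cebpa* between -0.14 and -0.01. The 10 macrophage markers had none past the fold, with *Cd68* at 0.48, *Lyz2* at 0.37, *Csf1r* at -0.07 and *Cd163* at -0.45. The skeletal muscle markers summed to 1670 and 2309, and 6 of 12 were higher past the fold, led by *Acta1*, *Tnnc2* and *Tnni2* with 1.26, 0.84 and 0.80, and *Myl1* had 0.21. In the recovered reads this excess was in KO library a, while the other KO libraries held 70 and 74 muscle reads, within or below the 74 to 92 of the WT libraries. Of the mammary and skin markers *Ltf* had -0.69, *Prlr* -0.48, *Epcam* 0.34 and *Krt10* -0.13, while the keratinocyte genes *Krt5* and *Krt14* were near 0 in both genotypes, with values of 5.28 or less. Nearly all of their few reads were in KO library a, with 21 and 11, and WT library c, with 11 and 6. Of 12 proliferation genes, 11 had the higher KO value and none lay past the fold, with *Mcm5*, *Mcm2*, *Pcna* and *Mki67* at 0.44, 0.37, 0.34 and 0.12. The part of these cell types in the values of the 10 imprinted genes was not tested.

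The ratios also moved with gene length. The median log2 ratio was 0.27 among genes of up to 837 bases and -0.15 among those of at least 7427 bases. Centred on genes of like length, the median of the 10 genes was -0.60, 5 lay past the fold, and *Peg3os*, which is 865 bases long, had -1.44.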

How the data were processed

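RNA of iAT from 3 WT and 3 Npffr1-KO samples, grouped by the genotype in the labels, was sequenced by the authors. The submitters' processing notes name Bowtie2, RSEM and DESeq2, while no genome build or annotation is given in the sources used here. RSEM estimates may divide reads between overlapping genes. The deposited table gives 1 signal per genotype and gene, which the authors made from read counts normalized for library size, and the gene length in bases. It also holds the authors' log2 fold changes, p-values and direction calls, and a second file repeats a filtered part of it. None of these was used.

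The mean of both signals equals the mean of the normalized counts over 6 libraries. From genes with a single read, 6 size factors (0.916 to 1.04) were found. For genes with a mean of up to 70, every set of 6 whole read numbers was searched. For imprinted genes up to 250 with no earlier solution, the search covered library values within a factor of 2 of the genotype value and log2 changes of 1.0 to 1.25 times that between the signals, widened by 0.03. Combinations outside were not searched, and *Peg3os*, with 12 matches, was left unresolved. The search was checked on simulated data, but the outcome is not given here. Genes from the full search could lie outside the restricted limits. From the reads, the log2 ratio was 1.32 for *Magel2* and 4.56 for *Myh1*. Between the signals it was 1.0 and 0.27. In both genes KO library a held the most reads. Whether the limits hold for the 8 genes of the restricted search was not tested. Total reads per library were not recovered.

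The ratio is log2(KO/WT) without a pseudocount, and a fold of 0.5 and a mean of at least 10 were used. With 1 value per genotype, no test was run and depth alone cannot give an error. For genes with recovered reads, the SD is over 3 libraries and may be technical. Among 148 genes with a mean of over 40 past the fold, the change from reads was a median of 1.14 times that from the signals. The 10 genes, the gene lists and their alleles and loci were chosen with earlier results of these data known. Named are the 10 genes, every listed gene of their loci, low imprinted genes with at least 5 reads, and of each other list the 3 largest ratios and the 2 highest means. *Phlda2*, *Calcr*, *Myh1*, *Ckm*, *Krt5*, *Krt14*, *Icam1*, *Cd55*, *Dpp4*, *Adipoq*, *Cfd*, *Plin4*, *Retn*, *Cebpa* and some family members were named after their values were seen. Promoters of 6 of the 10 genes and positions came from RefSeq and GENCODE M21 (GRCm38), and shared sequences of 31 bases were counted on both strands. Alternatives were centring on the median gene or on 20 length classes, pseudocounts of 1 and 10, minimums of 0 and 100, folds of 0.25 and 1, leaving out a locus or a library, and other search limits. A value that changed by over 1.5 times was counted as moved. Python 3.11.15, numpy 2.4.6, pandas 2.3.3, numba 0.67.0 and matplotlib 3.10.9 were used.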

Additional observations from a re-analysis of the deposited data

How the results depend on the processing

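No paired analysis was possible because the table gives 1 value per genotype and the recovered libraries carry no replicate number. The median log2 ratio of the 10 genes stayed between -0.77 and -0.47 under both centrings, both pseudocounts and without each locus in turn, except without the *Peg3* locus, where it was -0.25. The medians of the maternal and paternal genes kept their sign and size under both centrings and both pseudocounts. At a fold of 1 on the log2 scale 2 genes, *Peg3os* and *Zim1*, were lower, and at a fold of 0.25 there were 7 lower and 1 higher, *Ndn*. Of all genes with a mean of at least 10, 0.314% were lower and 0.483% higher by a fold of 1. By a fold of 0.25, 16.6% were lower and 18.0% higher. Centring on genes of like length changed the ratio of *Grb10* from -0.25 to -0.15, and no ratio of the 10 genes changed sign under the centrings and pseudocounts run. Reads by library were found for 9 imprinted genes with means of up to 25, 17 with means of up to 70, and 25 with the wider search. Leaving out each library in turn, the KO minus WT difference in mean normalized reads ranged from -178 to -102 for *Zim1*, from -233 to -110.0 for the sum of 17 imprinted genes with a mean of at least 10, *Zim1* included and *Rtl1* left out, and from 16.1 to 74.3 for *Magel2*. Most of that sum was *Zim1*: it was -163 with all 17 genes and -19.1 without *Zim1* (added after seeing the data). The *Zim1* reads came from the restricted search, which kept each library within a factor of 2 of the genotype value. The ranges for *Zim1* and for that sum are therefore bounded by the search and are no check of stability. The lowest *Magel2* value was that without KO library a (added after seeing the data), against 47.6 with all libraries, and the highest that without KO library b. At a minimum mean of 100, 2.76% of all genes were lower and 3.30% higher past the fold. Depth limits *Usp29*, *Magel2* and *Hymai*, for which single libraries or few reads set the value.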
